A study of Mus musculus with 2 samples.

Results

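The 7 genes described here encode the acetylcholine receptor of skeletal muscle and proteins that gather it under the nerve ending. They were chosen by name: the receptor subunits Chrna1, Chrnb1, Chrnd and Chrng, the receptor tyrosine kinase Musk, its adaptor Dok7 and the scaffold Rapsn. All 7 were present among 10543 genes with a single symbol in the deposited table. The samples were thigh muscles of B6C3F1 mice, a hybrid strain, aged 26 months in both groups, from which poly(A) RNA was sequenced. The control group received the control diet. The calorie restriction (CR) group took in about 40% fewer calories over 25 months, on a diet enriched so that protein, vitamins and minerals per body weight were similar. Each group was represented by 1 library, so no difference below has a replicate check. How many mice stand behind each library, and their sex, is not stated in any source used here.

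The neuromuscular junction is the synapse at which a motor nerve drives a muscle fibre. The nerve releases acetylcholine, which opens a pentameric channel made of 2 alpha subunits with a beta, a delta and either a gamma or an epsilon subunit. The gamma form is that of fetal and denervated muscle, and the epsilon form replaces it in innervated adult muscle. Agrin from the nerve binds Lrp4, which activates MuSK; with Dok-7, MuSK signals to rapsyn, which holds the receptors in clusters. In innervated adult fibres most of these genes, other than that of gamma, are read mainly from the few nuclei under the synapse. Loss of the nerve supply allows transcription of several of them, and of gamma, along the whole fibre.

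Values are FPKM, the authors' fragment counts per unit of transcript length and library size, so levels can be set side by side between genes. How library size was scaled is not given, and the sums over all loci below are high for FPKM. The absolute scale of the values is therefore uncertain. Each log2 ratio sets CR FPKM + 1 over control FPKM + 1, which understates differences of low genes; where a pair of values is given without labels, control comes first. The depth of the libraries is unknown and no counting interval can be given. Sums over all loci were 12758500 FPKM for control and 13608800 FPKM for CR, and 247 genes of the control library and 458 of the CR library were listed at 0. A listed 0 can be a failed estimate here, since Ttn and Neb, the genes of the giant sarcomere proteins, were at 0 in both. The tissue label was checked with 12 muscle fibre genes: 11 were measured, all within 2-fold, and the most abundant, the calcium pump Atp2a1, stood at 96498 FPKM on the control diet and 84736 FPKM under CR. The remaining gene, desmin, lies in a locus merged with Speg and was left out. In bulk tissue, fewer cells of a type and less RNA per cell cannot be told apart.

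All 7 genes had the lower value in the CR library. A lower value alone is common, as the median log2 ratio over the 10533 genes averaging 1 FPKM or more was -0.03. Rapsn, at -0.05, was close to that median. Of the 7 genes, 4 were at least 2-fold lower (Chrna1, Chrnb1, Chrnd and Dok7), Chrng was listed at 0 in the CR library, and Musk and Rapsn lay within 2-fold. Counting Chrng on the log2(FPKM + 1) scale, 5 of 7 were at least 2-fold lower and 0 were at least 2-fold higher. For comparison, 10.7% of the 10533 genes averaging 1 FPKM or more were lower by that much, and 8.01% were higher. Among the 9844 genes above 0 in both libraries, 6.85% were at least 2-fold lower and 6.15% were higher by as much, against 4 and 0 of 6 here. The median log2 ratio of those 6 genes was -1.10, a level 2.14-fold lower in the CR library, beside a median of -0.02 over the 9844 genes. These genes were selected with earlier results of the same libraries known, so their counts are a description.

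**Figure D1:**
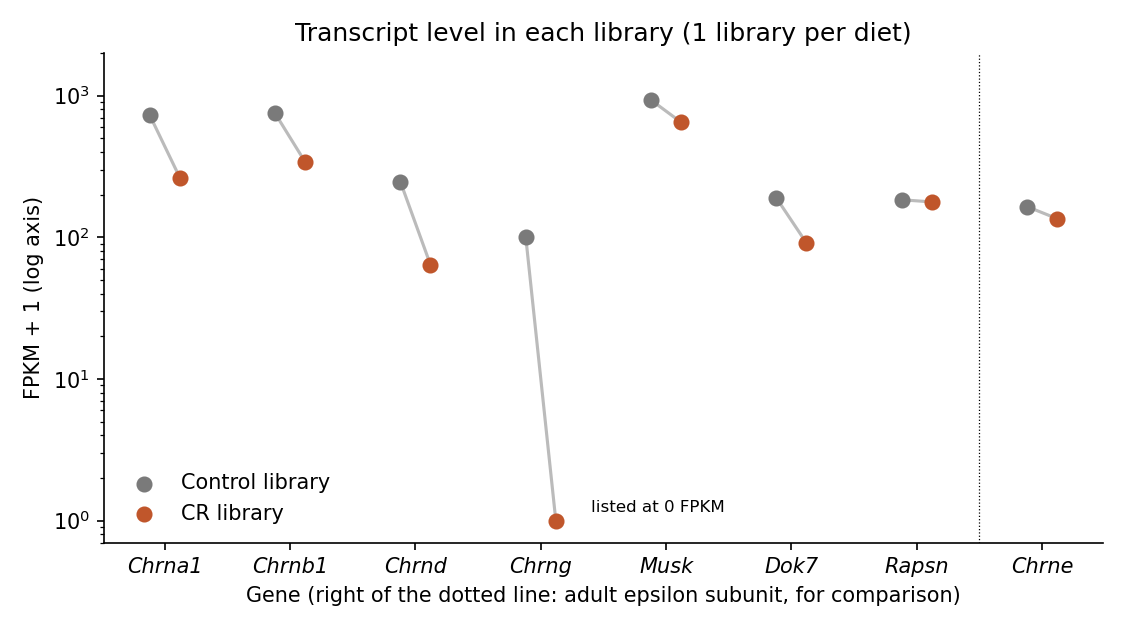
FPKM + 1 on a log axis for each of the 7 genes and the adult subunit gene Chrne, with grey points for the control library and orange points for the CR library. Chrna1, Chrnb1, Chrnd and Dok7 were at least 2-fold lower in the CR library, Chrng was listed at 0 there, and the points of Rapsn nearly coincide (183 and 177 FPKM).

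Each of the 4 receptor subunit genes was at least 2-fold lower under CR or listed at 0 there. Chrna1 encodes the alpha subunit, which carries most of each acetylcholine binding site, and lies on chromosome 2 (mm9, 73401338 to 73418450, minus strand). It stood at 727 FPKM on the control diet and 263 FPKM under CR. That is 2.76-fold lower, a log2 ratio of -1.46. Its place among all genes, counted from the most abundant, moved from rank 1420 to rank 4638.

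Chrnb1, the beta subunit gene on chromosome 11 (mm9, 69597035 to 69609439, minus strand), stood at 749 FPKM on the control diet and 339 FPKM under CR, a log2 ratio of -1.14. In the control library it was thus nearly level with Chrna1 (an alpha to beta ratio of 0.971), and in the CR library alpha was the lower (0.775). The end of Chrnb1 overlaps the end of Zbtb4, a zinc finger gene on the opposite strand, over 494 bases. Zbtb4 stood at 396 FPKM and 210 FPKM, a log2 ratio of -0.91. Reads in the overlap cannot be assigned to either gene, because the library kit, as described, keeps no record of strand.

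Chrnd encodes the delta subunit and lies on chromosome 1 (mm9, 89087227 to 89096645, plus strand). It stood at 246 FPKM on the control diet and 62.9 FPKM under CR, 3.86-fold lower. Its log2 ratio of -1.95 was the lowest of the 6 genes above 0 in both libraries, and 1.56% of the 9844 genes had a lower one. Chrnd went from above the median gene of the control library (223 FPKM) to percentile 17.8 of the CR library.

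Chrng, the fetal gamma subunit gene, follows Chrnd on the same strand after 5740 bases (mm9 chromosome 1, 89102386 to 89108410). It was listed at 99.8 FPKM on the control diet and 0 under CR, so no fold is given. Of the 874 other genes whose control value lay within 1.2-fold of that of Chrng (83.2 to 119.8 FPKM), 41 (4.69%) were also listed at 0 in the CR library.

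Chrne, which encodes the adult epsilon subunit, is not among the 7 genes and was read as their counterpart. It lies on chromosome 11 (mm9, 70428385 to 70432696, minus strand) and stood at 164 FPKM on the control diet and 134 FPKM under CR, a log2 ratio of -0.28. Its span overlaps the merged locus of Mink1 and 4930544D05Rik on the other strand (282 and 255 FPKM) over 2468 bases, so its value is uncertain. The gamma transcript made up 37.9% of gamma plus epsilon FPKM on the control diet and, as listed, 0% under CR. Delta exceeded epsilon in the control library (a ratio of 1.5) and stood below it in the CR library (0.468).

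Summed over the 5 subunit genes, the receptor transcripts came to 1985 FPKM on the control diet and 799 FPKM under CR, 2.48-fold lower. The shares shifted within that sum. Alpha held 36.6% in the control and 32.9% in the CR library, beta 37.7% and 42.4%, and delta 12.4% and 7.88%. Epsilon went from 8.25% to 16.8% of the sum, while gamma held 5.03% in the control library. In neither library did alpha transcript exceed beta transcript, though they were nearly level in the control library. The beta value is uncertain through the overlap with Zbtb4, and transcript values do not give the makeup of the assembled channel.

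**Figure D2:**
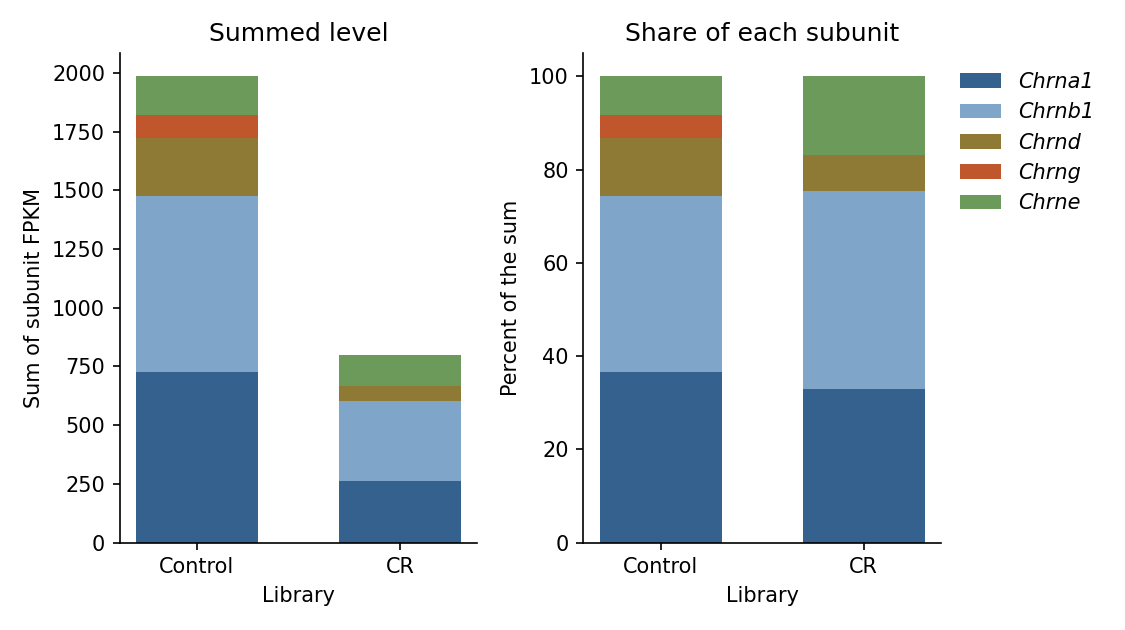
Stacked bars of the 5 receptor subunit genes in each library, as summed FPKM on the left and as percent of that sum on the right. The sum was 1985 FPKM on the control diet and 799 FPKM under CR, and the epsilon share was 8.25% and 16.8%.

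The regions before the alpha, gamma and epsilon starts are shown because these genes encode subunits with unlike differences between the libraries. E-boxes (CANNTG) are the sites that MyoD, myogenin and related myogenic factors are known to bind, and the N-box (CCGGAA or TTCCGG) is a site known from genes read under the synapse, bound by GABP. Sequences are from RefSeq on GRCm38.p6, a later build than that of the table, and give the 250 bases before the start, read 5′ to 3′ on the gene's strand. Capitals mark E-boxes and, in Chrne, also the N-box.
Chrna1, chr2:73580339-73580588, minus strand: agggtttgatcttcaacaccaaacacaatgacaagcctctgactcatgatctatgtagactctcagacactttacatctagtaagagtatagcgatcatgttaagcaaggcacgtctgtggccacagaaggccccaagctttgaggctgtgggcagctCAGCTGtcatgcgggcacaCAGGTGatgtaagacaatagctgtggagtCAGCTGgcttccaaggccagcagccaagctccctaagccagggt
Chrng, chr1:87205561-87205810, plus strand: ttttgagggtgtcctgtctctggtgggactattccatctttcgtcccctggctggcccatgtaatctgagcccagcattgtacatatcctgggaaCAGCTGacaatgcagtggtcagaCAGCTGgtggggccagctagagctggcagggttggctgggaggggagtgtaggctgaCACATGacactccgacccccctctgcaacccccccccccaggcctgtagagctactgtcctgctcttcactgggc
Chrne, chr11:70619195-70619444, minus strand: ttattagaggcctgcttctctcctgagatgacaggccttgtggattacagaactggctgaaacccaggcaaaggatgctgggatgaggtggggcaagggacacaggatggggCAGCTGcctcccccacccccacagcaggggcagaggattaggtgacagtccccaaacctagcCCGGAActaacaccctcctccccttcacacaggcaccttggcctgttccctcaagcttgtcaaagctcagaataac

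Windows of this kind were found for 5 of the 7 genes (Chrna1, Chrnb1, Chrng, Musk and Dok7). The single windows of Chrna1, Chrnb1, Chrng and Musk each held 3 E-boxes; 12.2% of all 32851 windows held 3 or more and 66.2% at least 1. The first window of Dok7 held 1 and its second 0; the windows of Dok7 and Musk lie largely or wholly inside longer RefSeq models of the same gene. The E-box CAGCTG, one form of CANNTG, occurred 2 times before Chrna1 and 2 times before Chrng, a count reached by 1.26% of all windows. It occurred once before Musk and once before Chrne, and 13% of all windows held at least 1. The N-box was found before Chrne and in none of the windows of the 5 genes, against 12% of all windows. At that share most windows lack it, so its absence from these few says little. Chrnd and Rapsn had no window, so it was not looked for there. Musk, whose values lay within 2-fold, had as many E-boxes as each of the 3 receptor genes. Any link between E-box number and the differences was not tested. A match of letters is a description and not evidence of binding.

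**Figure D3:**
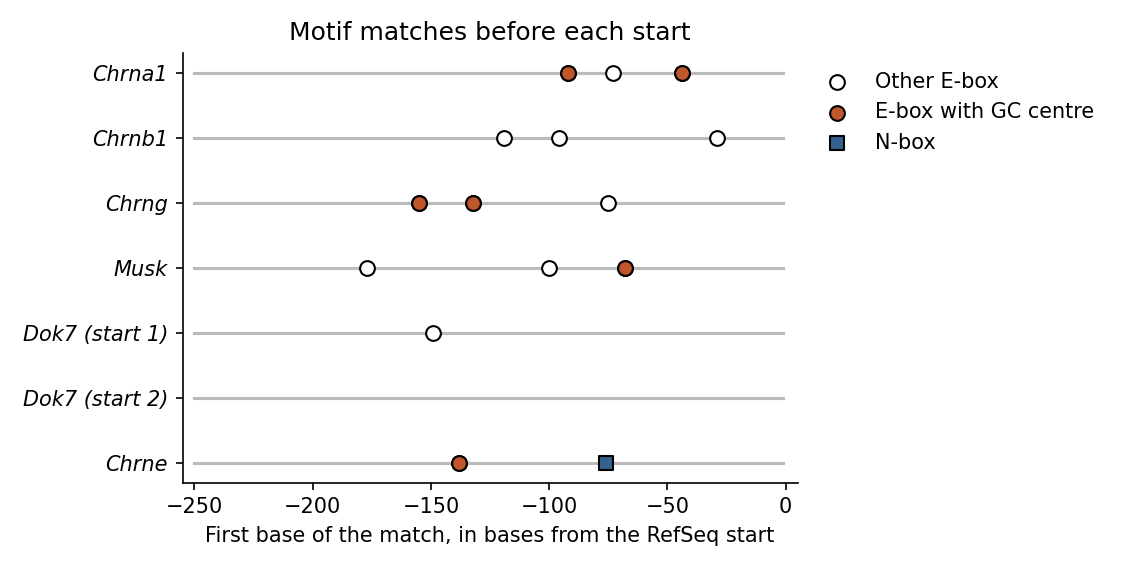
Position of E-box and N-box matches in the 250 bases before each RefSeq start, with distance from the start on the x axis and a line for each window. Filled circles are CAGCTG, open circles the other CANNTG forms and the square is the N-box of Chrne; Chrna1, Chrnb1, Chrng and Musk have 3 E-boxes each.

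Of the 3 genes of the clustering pathway, Dok7 was at least 2-fold lower in the CR library and Musk and Rapsn lay within 2-fold. Musk, the kinase that starts receptor clustering, lies on chromosome 4 (mm9, 58298703 to 58389341, plus strand) and is the one gene of the set listed with 6 transcript entries at its locus. It stood at 929.9 FPKM on the control diet and 647 FPKM under CR, a log2 ratio of -0.52. It was the most abundant of the 7 genes in both libraries. The ratio of Musk to Chrna1 was 1.28 in the control and 2.46 in the CR library.

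Dok7 encodes the cytoplasmic activator of MuSK and lies on chromosome 5 (mm9, 35399541 to 35430480, plus strand). It stood at 188 FPKM on the control diet and 90.2 FPKM under CR, 2.08-fold lower. Its log2 ratio of -1.06 lay just past 2-fold.

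Rapsn, the gene of the scaffold protein rapsyn, lies on chromosome 2 (mm9, 90875781 to 90886105, plus strand). It stood at 183 FPKM on the control diet and 177 FPKM under CR, a log2 ratio of -0.05, and 47.6% of the 9844 genes had a lower ratio. Rapsn transcript was 0.252 of the alpha transcript on the control diet and 0.673 of it under CR. Rapsyn binds receptors in the membrane, and its gene was the one among the 7 with nearly equal values.

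By level, the order in the control library was Musk, Chrnb1, Chrna1, Chrnd, Dok7, Rapsn and Chrng. In the CR library it was Musk, Chrnb1, Chrna1, Rapsn, Dok7, Chrnd and Chrng, so that the first 3 kept their places and Chrnd and Rapsn exchanged theirs. With 1 library per diet there is no spread against which neighbours in these orders could be told apart; Chrnb1 and Chrna1 (749 and 727 FPKM) and Dok7 and Rapsn (188 and 183 FPKM) of the control library were the closest.

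**Figure D4:**
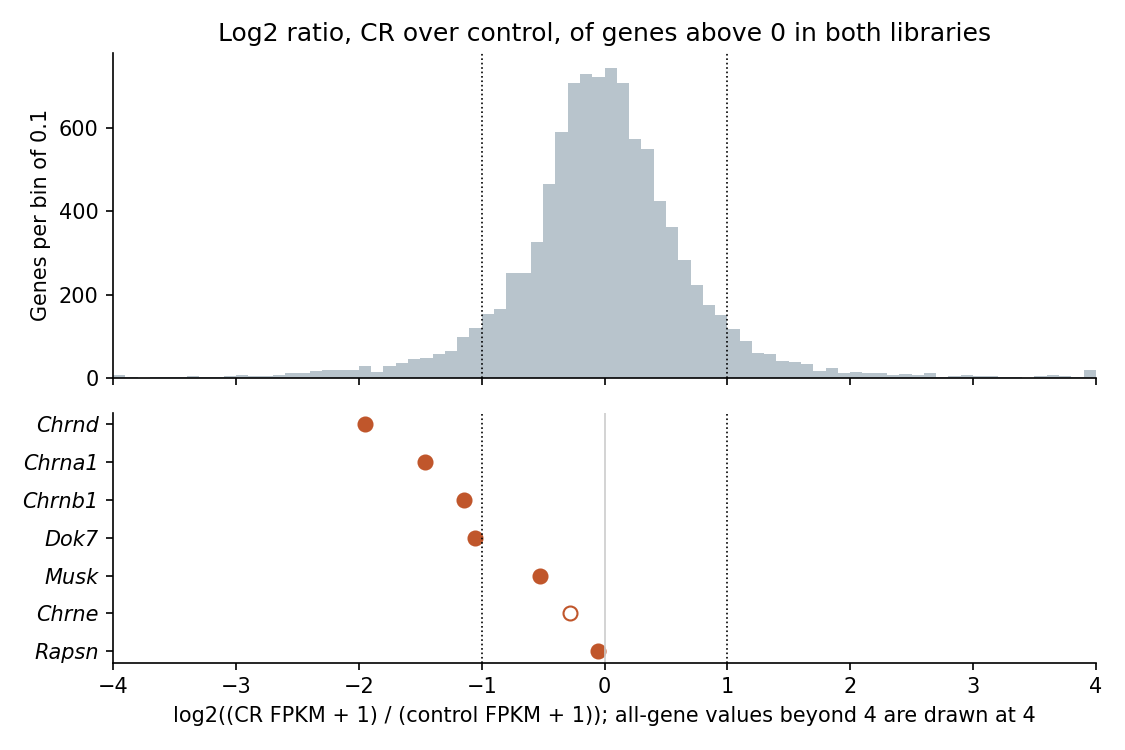
Upper panel, histogram of the log2 ratios, CR over control, of the 9844 genes above 0 in both libraries; lower panel, the same ratio for 6 of the 7 genes (filled) and Chrne (open), with dotted lines at 2-fold. Chrnd (-1.95), Chrna1 (-1.46), Chrnb1 (-1.14) and Dok7 (-1.06) lie left of the 2-fold line; Chrng has no ratio and is not drawn.

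Upstream of MuSK, the genes of agrin and Lrp4 lay within 2-fold. Agrn, which muscle and nerve both make, stood at 237 FPKM on the control diet and 194 FPKM under CR, a log2 ratio of -0.29. A value from whole muscle does not measure the agrin that the nerve supplies. Lrp4, the agrin receptor, was higher in the CR library, at 287 and 408 FPKM, a log2 ratio of 0.50. Ache, the acetylcholinesterase gene, lies in a locus merged with Ufsp1 (99.8 and 127 FPKM) and was left out. Colq, the collagen tail that anchors the esterase at the synapse, stood at 60.1 and 127 FPKM, a log2 ratio of 1.07.

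Other genes of the synapse, a list of 55 that includes these, served as the setting. The list also takes in chaperone, glycosylation and signalling genes that act in many cell types. Its counts and median are therefore not those of genes confined to the synapse. Of the 46 measured, 2 were at least 2-fold higher, 4 at least 2-fold lower and 40 within 2-fold; the 44 above 0 in both libraries had a median of -0.19 on the log2 scale. The higher ones were Colq and the syntrophin Sntb1 (55.8 and 114 FPKM). The lower ones were the kinase Src, which phosphorylates the receptor (106 and 30.9 FPKM), Vldlr, a lipoprotein receptor (1007 and 476 FPKM), the neuregulin receptor Erbb2 (listed at 46.0 and 0 FPKM) and the dystrobrevin Dtnb (23.8 and 0 FPKM). The sodium channel Scn4a, the most abundant of the list, stood at 1872 and 1359 FPKM. Over all genes the shares past 2-fold were 8.01% higher and 10.7% lower. Of the other acetylcholine receptor genes, neuronal and muscarinic, Chrna10 alone was listed under its symbol, at 149 and 153 FPKM.

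**Figure D5:**
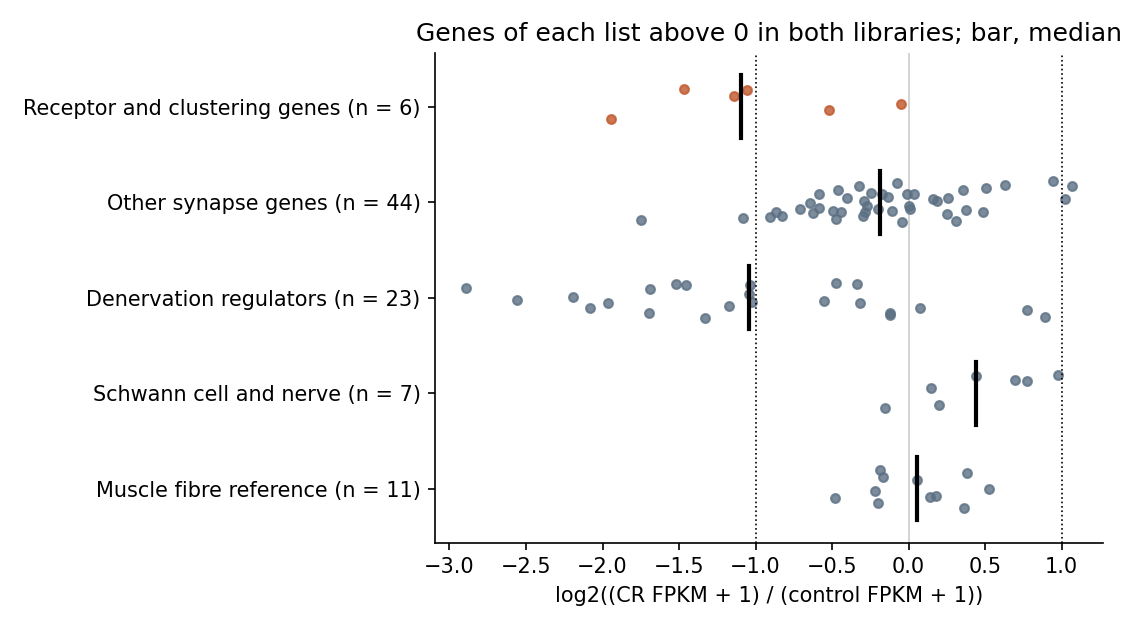
Log2 ratio, CR over control, of each gene above 0 in both libraries, for the 6 receptor and clustering genes and 4 other lists; black bars are medians, dotted lines mark 2-fold and the vertical scatter has no meaning. The medians were -1.10 for the receptor and clustering genes, -0.19 for other synapse genes, -1.05 for denervation regulators, 0.44 for Schwann cell and nerve genes and 0.05 for muscle fibre genes.

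Genes known to respond to loss of the nerve supply stood at a median log2 ratio of -1.05 (23 genes above 0 in both libraries), with 16 of 27 measured genes lower by 2-fold or more and 2 higher by as much, beside 10.7% lower and 8.01% higher over all genes. The lowest ratios above 0 in both libraries were those of Gadd45a (-2.89), Runx1 (-2.56), Hdac4 (-2.19) and Cdkn1a (-2.08). Hdac4, a histone deacetylase induced by denervation, stood at 470.1 and 102 FPKM, and Myog, the myogenic factor that acts on the receptor promoters, at 395 and 174 FPKM. The highest were Fgfbp1 (0.89), Ngfr (0.78), Id1 (0.08) and Id3 (-0.12), and Trim63 was the most abundant (4762 and 1738 FPKM). Bdnf was listed at 21.4 and 0 FPKM, while Hdac9 was listed at 0 and 96.6 FPKM and Nnmt at 0 and 89.9. This list holds genes already known to differ between these libraries.

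Among 67 synapse and denervation genes above 0 in both libraries, those with the log2 ratio nearest to the median of the 6 receptor and clustering genes were Vldlr (-1.08), Ncam1 (-1.05), Ampd3 (-1.04), Sik1 (-1.02) and Myog (-1.17). Ncam1, an adhesion molecule of the junction and of denervated fibres, stood at 307 and 148 FPKM. The measure is the distance between single ratios of 2 libraries and says no more than that. The denervation list holds genes already known to differ, so the presence of its genes here was partly set by that choice.

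Markers of other cells in the muscle were read beside these values, and their counts past 2-fold stand beside shares of 8.01% higher and 10.7% lower over all genes. Of 19 Schwann cell and nerve genes 9 were measured, 1 at least 2-fold higher (S100b, listed at 0 and 42.4 FPKM) and 1 at least 2-fold lower (Sox10, 16.3 and 0 FPKM), both through a listed 0, so that the nerve counts were close to those shares. Ngfr, one of the 9, is also in the denervation list. Their sum was 933 FPKM on the control diet and 1267 FPKM under CR, and the myelin gene Pmp22, the most abundant, stood at 178 and 351 FPKM. The axonal and cholinergic genes of that list, among them Chat, Slc18a3, Nefl, Nefm and Nefh, were not listed under their symbols. White adipocyte markers were higher in the CR library, 6 of 7 by at least 2-fold (Adipoq, Retn, Fabp4, Plin1, Cfd and Cidec), with a sum of 3922 and 18457.5 FPKM. Of 7 measured tendon markers 4 were at least 2-fold lower (Scx, Fmod, Comp and Tnc) and 1 higher (Col1a1), with a sum of 2158 and 1562 FPKM. Fmod was the most abundant, and Tnc was listed at 223 and 0. Of 5 satellite cell markers 2 were measured, Cdh15 (363 and 231 FPKM) and Vcam1 (0 and 30.4 FPKM), and Pax7, Myf5 and Calcr were not listed. The part of the tissue's makeup in the values of the 7 genes was not tested; the muscle fibre genes had a median log2 ratio of 0.05.

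Unnamed loci, assembled by the authors without a gene name, overlapped 3 of the 7 genes, all of them on the opposite strand as listed. Dok7 held 3, each the lower in the CR library, with sums of 109 and 35.9 FPKM. Musk held 3, of which 2 were the lower in the CR library, with sums of 496 and 266 FPKM. The most abundant of them (mm9 chromosome 4, 58379666 to 58379846), at 344 and 102 FPKM, carried most of that difference, and another (58380265 to 58380429) was the higher in the CR library, at 89.5 and 123 FPKM. Rapsn overlapped 5, with sums of 191 and 169 FPKM, of which 4 were the lower in the CR library. The share of all unnamed loci with a lower value in the CR library was not computed. These counts therefore have no background and are a description. No unnamed locus overlapped Chrna1, Chrnb1, Chrnd or Chrng. As strand is not recorded, reads of these loci and of the genes around them cannot be told apart, and the values of Musk, Dok7 and Rapsn are uncertain for that reason.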

How the data were processed

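Libraries of fragments of about 200 nt, made from the poly(A) fraction of 10 µg of RNA, were read as 76 bp pairs, per the labels' protocols. The submitters' processing notes name TopHat 1.2.0, Cufflinks, Cuffdiff and the build mm9; options and annotation: not given in the sources used here. What the authors deposited is FPKM for each locus, with 1 added. The offset was inferred from digits: 40 of 46 control values from 100 to 101 have more than 6 digits, and 0 of 54 from 101 to 102 do. It was subtracted.

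Loci with 1 symbol were kept and loci of a symbol summed; 234 merged loci and 12890 unnamed loci were left out of the gene table. The log2 ratio of FPKM + 1 was taken for genes averaging 1 FPKM or more, and genes at least 2-fold apart were counted. With 1 library per group no test was possible. The calculation was tested on simulated data. The genes and lists were chosen with earlier results of these data known. From each list the text names every gene past 2-fold when there are at most 8, otherwise the 4 highest and 4 lowest above 0 in both libraries, with the most abundant gene and those listed at 0 with a mean of at least 10 FPKM; Agrn, Lrp4, Chrne, Ache and Colq are named whatever their values. A gene that this rule takes is not reported here. The 5 nearest ratios to the median of the receptor and clustering genes are also given. Python 3.11.15, numpy 2.4.6, pandas 2.3.3 and matplotlib 3.10.9 were used.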

Additional observations from a re-analysis of the deposited data

How the results depend on the processing

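The limits are 1 library per diet, an unknown depth and zeros that can be failed estimates. Results were recomputed under 9 alternatives chosen with the design and 1 added after the data were seen, which leaves out genes listed at 0. A value was taken as unmoved within 1.5-fold, as there is no replicate spread. Each of the 6 receptor and clustering genes above 0 kept its direction and its side of 2-fold under all 10. The filters, the use of only the largest locus of a symbol and the removal of listed zeros could not change these ratios. Only the pseudocounts and the centring or rescaling could. The median of the 6 ranged from -1.17 to -1.07 and Dok7, the closest to the threshold, from -1.13 to -1.02. The count of genes at least 2-fold lower was 5, or 4 when genes had to average 100 FPKM or without genes listed at 0, since both remove Chrng. Of 210 comparisons 193 stayed within 1.5-fold. Reversals are not counted, because only medians and ratios past 2-fold could be labelled so. The largest rescaling, a log2 shift of -0.07, was too small to reverse any of those. That tally includes the ratios that could not change.

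The 17 that moved were counts. With the filter at 100 FPKM, synapse genes numbered 0 higher and 1 lower, denervation genes 0 higher, nerve genes 0 higher and 0 lower, and all genes 390 higher and 417 lower. Without genes listed at 0, synapse genes numbered 2 lower, denervation genes 0 higher, nerve genes 0 higher and 0 lower, and all genes 674 lower. Higher synapse genes numbered 1 with a pseudocount of 5 FPKM, 0 when rescaled without the 50 most abundant genes and 1 when rescaled on muscle fibre genes. Lower nerve genes numbered 0 with a filter at 10 FPKM, and higher nerve genes 2 when centred on the median gene. No paired analysis was possible because each group has 1 library.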

Other observations

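The named genes next to the receptor genes were read within 10 kb on mm9. Eif4e2, a cap-binding protein gene that follows Chrng on the same strand (chromosome 1, 89110489 to 89137063), stood at 444 FPKM in the control and 442 FPKM in the CR library, a log2 ratio of -0.01, beside -1.95 for Chrnd. Fgf11, next to Chrnb1, was listed at 29.0 and 0 FPKM. Lrpap1, next to Dok7, stood at 163 and 202 FPKM, and the proteasome gene Psmc3, next to Rapsn, at 1910.1 and 1604 FPKM. No other locus was listed within 10 kb of Chrna1.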
